A study of Mus musculus with 17 samples.

Results

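RNA polymerase II was mapped in N4bp1 knockout (KO) bone marrow-derived macrophages of the mouse after 6 h of R837, and the 2 libraries of that group were set against the 2 libraries of KO macrophages after 2 h of R837. These are 4 of the 16 libraries with a summit list. The others are KO cells at 4 h of R837 and untreated, and wild-type (WT) cells at 6 h, 4 h and 2 h of R837 and untreated, again 2 libraries a group. All cells were cultured bone marrow-derived macrophages, and chromatin was immunoprecipitated with an antibody against RNA polymerase II. The labels give the genotype only as N4bp1 KO and name neither the part of the gene that was removed nor the age or strain of the mice. Nor do they state if replicates stem from different mice or dishes, so every p-value reflects library-to-library spread alone, part or all of which may be technical.

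R837 (imiquimod) is a small agonist of TLR7, an endosomal receptor for single-stranded RNA. TLR7 signals through MYD88 to the IkB kinases, which release NF-kB, and to interferon regulatory factors. A first wave of chemokine, cytokine and inhibitor genes is transcribed early, and a later wave follows that includes interferon-stimulated genes and metabolic genes. N4BP1 restrains inflammatory cytokine production downstream of TLRs and is a substrate of caspase-8, and the title of the study links it to the IkB kinases. The comparison asks which genes kept, gained or lost polymerase between the early and the late time when N4bp1 was missing.

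Each deposited list holds the summits (positions of highest signal) of polymerase peaks in 1 library, with a score per summit. The lists differ in length, so all 16 were reduced to 8394 ranks, as many as the shortest list has. A gene's rank is that of the best summit in its annotated span or within 1 kb of it, with 1 the best, and its rank score is the log2 of 8395 divided by that rank, or 0 with no summit. The rank score runs to 13.04, and a change of 1 is a factor of 2 in rank. It says where a gene stands among the others of its library and is no measure of how much polymerase was bound. Sequencing depth cannot be read from the lists, and in bulk chromatin fewer cells with polymerase on a gene cannot be told apart from less polymerase per cell.

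The KO 6 h lists held 22157 and 29760 summits, against 13825 and 9402 in the KO 2 h lists. Replicate 2 of KO at 6 h stood apart. It shared at most 0.0546% of its distinct score values with any other list, whereas the best match of each of the other 3 KO lists was 72.6% to 81.2%, and its top score was 563.5 against at most 320.4 elsewhere. Results are therefore also given without it. Codes in the deposited peak names form 1 series for untreated and 2 h libraries and another for 6 h, in both genotypes, while the 4 h libraries of KO and WT carry a series each. The labels name no batch, and time and any difference in handling cannot be told apart. Over the targeted gene N4bp1 (chr8:86841136-86885296), the best summit ranked 1062 and 1122 in the KO 6 h libraries and 1588 and 537 in the KO 2 h libraries, against 3442 and 2699 in WT at 6 h and 2446 and 947 in WT at 2 h. It lay 585 to 747 bp after the annotated start in the KO libraries. Polymerase was thus listed on the locus of the KO cells, which checks nothing about a deletion whose place is not given. Among defining macrophage genes, Csf1r, Adgre1, Cd68, Spi1, Cd14, Lyz2 and Itgam had a summit among the 8394 best in all 4 libraries, Fcgr1 in 3 and Mertk in 0.

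Between 2 h and 6 h in KO macrophages, the genes that took a better place included 11 of 26 tested genes of glycolysis and hypoxia, 11 of 44 interferon-stimulated genes and 5 of 18 NRF2 targets. Those that took a worse one included 6 of 34 genes of the NF-kB primary response, 4 of 15 of antigen presentation, 3 of 14 chemokines and 5 of 47 ribosomal protein genes. The largest rise was at Ptgs2, the inducible cyclooxygenase of prostaglandin synthesis, and the largest fall at Etv3, an ETS-family repressor. Among 8481 genes tested with limma, 279 were higher at 6 h (3.29% of those tested) and 153 lower (1.8%) at an adjusted p under 0.05. The median change over all tested genes was 0.07. The calls rest on the spread estimated over all 16 libraries: with the 4 compared libraries alone limma called 0 genes, with 579 higher and 304 lower at an unadjusted p under 0.05. When each gene received 1 rank among genes, so that neighbours could not fill several places, 172 were higher and 166 lower, and the share of higher calls was 50.9% in place of 64.6%. Without KO 6 h replicate 2 the counts were 193 and 76, of which 132 and 65 were among the 279 and 153. They were 727 and 133 without KO 6 h replicate 1, 99 and 92 without KO 2 h replicate 1, and 101 and 185 without KO 2 h replicate 2.

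**Figure D1:**
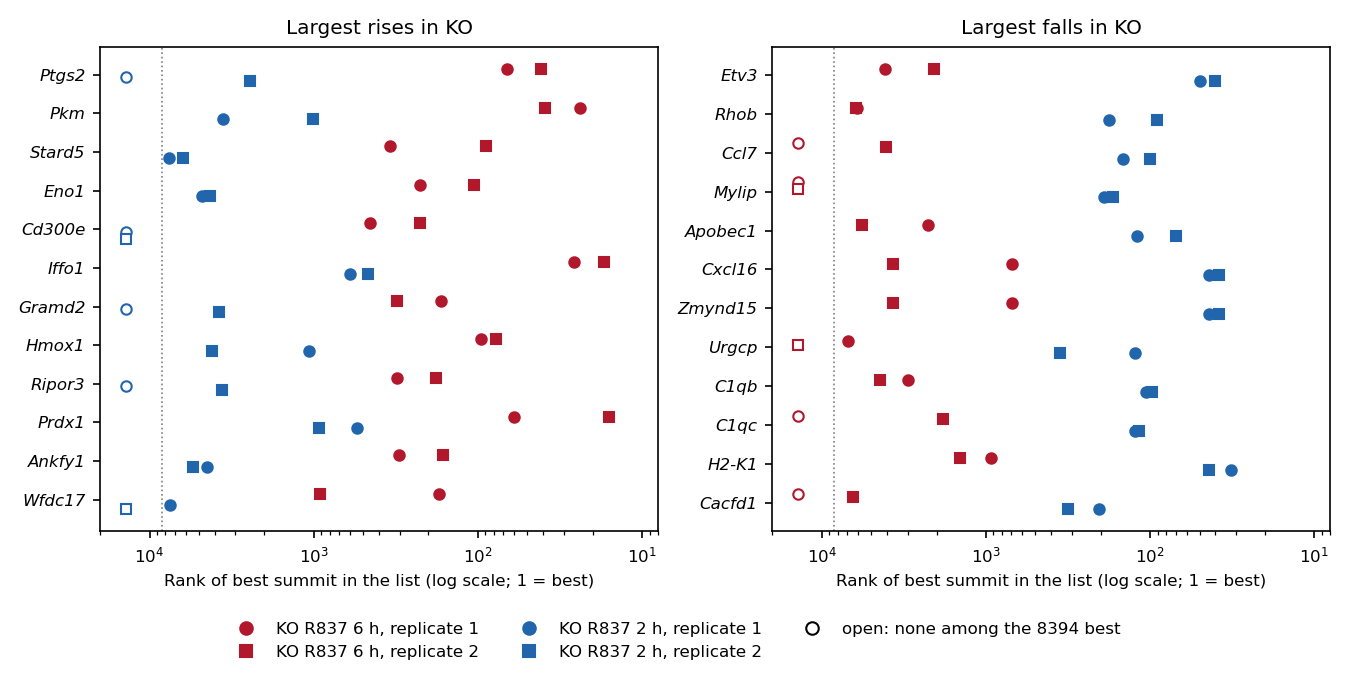
Rank of the best summit (log axis, best at the right) in the 2 KO 6 h libraries (red) and the 2 KO 2 h libraries (blue) for the 12 largest rises and 12 largest falls, with open symbols where no summit was among the 8394 best. The times do not overlap for any of these genes, which the choice of the genes required. Over all tested genes both KO 6 h libraries lay above both KO 2 h libraries at 23.2% and below them at 10.4%.

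Ptgs2 (chr1:150100031-150108234, plus strand) ranked 66 and 41 in the KO 6 h libraries. In the KO 2 h libraries it ranked 2427 in replicate 2, and in replicate 1 its summit was at place 8887 of the whole list. Both late libraries placed it near the top and both early ones far down, a change of 6.44 ± 0.71 (SE; adjusted p = 6.23e-04), and the call held when any of the 4 libraries was left out (highest adjusted p 0.00567). The summits lay 138 and 259 bp after the start at 6 h and 171 bp after it in the 2 h replicate that listed it. Among untreated KO libraries it had no summit in the shortened lists. Stard5, a lipid-binding START-domain protein, ranked 344 and 89 in KO at 6 h, against 7594 and 6284 in KO at 2 h (change 5.30 ± 0.62, adjusted p = 0.00102). Cd300e, an activating receptor of myeloid cells, ranked 455 and 226 in KO at 6 h and had no summit at any place in either whole KO 2 h list (change 4.71 ± 0.71, adjusted p = 0.0031). Wfdc17, a macrophage protein with a WAP domain, and Ankfy1, an endosomal Rab5 effector, rose by 4.32 ± 0.76 and 4.47 ± 0.79. Ripor3 ranked 311 and 179 in KO at 6 h, against 3617 in KO 2 h replicate 2 and no summit among the 8394 best in replicate 1. Without KO 6 h replicate 2 the adjusted p was 0.0911 for Ripor3 and 0.0588 for Ankfy1, and both then missed the threshold.

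Of 26 tested genes of glycolysis and the hypoxia response, the pathway that activated macrophages use to turn glucose into lactate, 11 were higher in KO at 6 h, 0 were lower, and the median change was 1.72 against 0.07 over all tested genes. That is 42.3% higher, beside 3.29% over all tested genes. WT had 7 higher and 0 lower in this list, with a median of 0.98. The 11 run from uptake to lactate export: Slc2a1 (the glucose transporter GLUT1), Hk2 (hexokinase), Pfkm and Pfkfb3 (phosphofructokinase and the enzyme that makes its activator), Aldoa, Gapdh, Pgk1, Eno1, Pkm, Ldha (lactate dehydrogenase) and Slc16a3 (the lactate exporter MCT4). Pkm, pyruvate kinase, ranked 24 and 39 in KO at 6 h, against 3548 and 1003 in KO at 2 h, a change of 5.95 ± 0.78 (adjusted p = 0.00192). Eno1, enolase, ranked 226 and 105 in KO at 6 h, against 4777 and 4307 in KO at 2 h, a change of 4.88 ± 0.72 (adjusted p = 0.0031). Ldha ranked 37 and 23 in KO at 6 h, against 388 and 365 in KO at 2 h, a change of 3.69 ± 0.73 (adjusted p = 0.0118). In each of these both late libraries lay above both early ones. The calls of Pkm, Eno1 and Gapdh held in all 4 fits without 1 library, that of Ldha in 1 of 4. Without KO 6 h replicate 2 the adjusted p was 0.0758 for Ldha and 0.0911 to 0.268 for Slc2a1, Hk2, Pfkm, Pfkfb3, Aldoa and Slc16a3, which all missed the threshold. Gapdh ranked 26 and 17 in KO at 6 h, against 264 and 465 in KO at 2 h, and 3 of these 4 summits also counted for its neighbour Iffo1. Both 6 h summits lay 5223 and 5288 bp after the Gapdh start, past its annotated end. Gramd2, next to Pkm, rose on its own summits, at 168 and 309 in KO at 6 h and not at the places of Pkm, and 2 of its 3 summits also lay in the Pkm region. Pgk1 ranked 1132 and 1364 in KO at 6 h and had no summit among the 8394 best in either KO 2 h library. Pgam1 (change 2.69, adjusted p = 0.0604) and Hif1a (change 1.60, adjusted p = 0.175) missed the threshold. Polymerase on Pkm was not new at 6 h: untreated KO libraries ranked it 203 and 114. Tpi1 was at 169 in KO 6 h replicate 1 and absent from the 8394 best in replicate 2, against 1151 and 1074 in KO at 2 h. The list's count was 4 without KO 6 h replicate 2, 13 without KO 6 h replicate 1, 4 without KO 2 h replicate 1 and 3 without KO 2 h replicate 2, with 0 lower in each, and 8 of 22 genes were higher with 1 rank per gene. When summits were counted in place of ranked, the changes of Pkm, Gapdh, Aldoa and Pfkfb3 were -0.16, -0.50, -0.66 and -1.91, the opposite sign.

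Promoter sequence of members of this list is shown because most of its higher genes, and several of the others, hold a short motif. The letters ACGTG, the core of the hypoxia response element and also part of the E-box CACGTG, were searched on both strands of the 300 bases around each start in the RefSeq promoter table (GRCm38.p6). They were in 9 of the 11 higher genes and in 16 of the 26 tested, those not called included, against 20.7% of 17492 promoters. Pkm and Eno1, the largest rises of the list, held none. The windows of Pkm (chr9:59656326-59656625, plus strand), Ldha (chr7:46845554-46845853, plus strand) and Pgk1 (chrX:106186850-106187149, plus strand) read as follows, 5′ to 3′, with matches on either strand in capitals.
Pkm: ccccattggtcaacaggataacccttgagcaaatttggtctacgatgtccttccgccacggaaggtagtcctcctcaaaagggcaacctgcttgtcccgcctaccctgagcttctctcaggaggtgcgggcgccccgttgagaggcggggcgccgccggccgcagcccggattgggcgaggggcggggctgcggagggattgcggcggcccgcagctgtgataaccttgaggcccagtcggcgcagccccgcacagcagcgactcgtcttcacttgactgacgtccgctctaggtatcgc
Ldha: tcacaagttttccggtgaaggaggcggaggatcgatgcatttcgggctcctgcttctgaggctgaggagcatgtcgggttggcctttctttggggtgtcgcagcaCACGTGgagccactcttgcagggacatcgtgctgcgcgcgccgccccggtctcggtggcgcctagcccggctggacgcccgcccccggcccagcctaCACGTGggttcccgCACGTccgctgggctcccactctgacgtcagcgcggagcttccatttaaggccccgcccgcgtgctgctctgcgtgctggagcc
Pgk1: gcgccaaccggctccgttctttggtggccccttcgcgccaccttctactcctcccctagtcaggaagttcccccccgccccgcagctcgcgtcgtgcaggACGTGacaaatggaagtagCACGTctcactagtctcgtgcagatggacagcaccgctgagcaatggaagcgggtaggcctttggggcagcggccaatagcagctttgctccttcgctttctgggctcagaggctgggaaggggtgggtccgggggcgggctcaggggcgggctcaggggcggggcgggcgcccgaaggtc
Matches lie at 150 and 131 bases before the start in Pgk1. A match describes the letters alone.

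The NRF2 targets, antioxidant and iron-handling genes, held 5 higher and 0 lower of 18 tested, with a median of 1.18. That is 27.8% higher, beside 3.29% over all tested genes. WT had 1 higher and 0 lower in this list, with a median of 0.03. Hmox1, heme oxygenase 1, ranked 96 and 78 in KO at 6 h, against 1071 and 4141 in KO at 2 h, a change of 4.61 ± 0.63 (adjusted p = 0.00238). Prdx1, a peroxiredoxin, ranked 60 and 16 in KO at 6 h, against 544 and 925 in KO at 2 h, a change of 4.52 ± 0.98 (adjusted p = 0.0191, or 0.162 without KO 6 h replicate 2). Slc7a11, the cystine transporter, ranked 308 and 965 in KO at 6 h, against 5982 in KO 2 h replicate 2 and place 11529 of the whole list in replicate 1 (change 3.70 ± 0.57, adjusted p = 0.00342). Taldo1 (transaldolase; adjusted p = 0.0927 without KO 6 h replicate 2) and Gsr (glutathione reductase) were the other two. Untreated KO libraries ranked Hmox1 394 and 554, between its places at 6 h and at 2 h, whereas Slc7a11 had no summit among the 8394 best there. The list's count was 3 without KO 6 h replicate 2, without KO 2 h replicate 1 and without KO 2 h replicate 2, and 6 without KO 6 h replicate 1. With 1 rank per gene it was 5 of 17.

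Interferon-stimulated genes are the antiviral programme that follows type I interferon. Of 44 tested, 11 were higher in KO at 6 h and 0 lower, and the median change was 1.18. They include sensors and effectors of viral nucleic acid (Ifih1, which encodes MDA5, Zbp1, Oas3, Oasl1 and Samhd1), transcription factors (Stat2 and Irf7) and the brake Usp18. Over all tested genes 3.29% were higher in KO. WT had 7 higher and 3 lower in this list, with a median of 0.58. The KO change was called different from the WT change at 0 of the 44. Usp18 ranked 403 and 457 in KO at 6 h, against 3976 in KO 2 h replicate 2 and no summit among the 8394 best in replicate 1 (change 3.75 ± 0.71, adjusted p = 0.00971). Zbp1, a sensor of Z-form nucleic acid, ranked 865 and 539 in KO at 6 h and was in neither whole KO 2 h list (change 3.62 ± 0.56, adjusted p = 0.00342). Herc6 ranked 681 and 891 in KO at 6 h and had no summit among the 8394 best in KO at 2 h (change 3.43 ± 0.67, adjusted p = 0.0116). For these 3 genes both late libraries lay above both early ones. Not all of the list moved. Isg15 ranked 512 and 1231 in KO at 6 h, against 1617 and 3854 in KO at 2 h (change 1.65, adjusted p = 0.238), Irf1 had a change of -1.60 (adjusted p = 0.378), and Ifit2, Ifit3 and Cxcl10 had no summit among the 8394 best in any of the 4 libraries. The summits of Stat2 were shared with Apof. The calls of Stat2, Irf7, Ifih1 and Samhd1 were lost without KO 6 h replicate 2 (adjusted p 0.151 to 0.287). The list's count was 5 without KO 6 h replicate 2, 11 without KO 6 h replicate 1, 3 without KO 2 h replicate 1 and 6 without KO 2 h replicate 2, and 6 of 41 genes were higher with 1 rank per gene.

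The interferon-stimulated response element, searched as GAAA, any 2 bases and GAAA on both strands, was in 3.37% of all promoters, in 20 of the 36 tested members with a promoter in the table, and in 3 of the 7 higher genes that had one (Stat2, Oas3 and Ifih1). Oas3, which makes the oligoadenylates that activate RNase L, is shown because its match and its best summits lie close together. It ranked 1113 and 812 in KO at 6 h, with no summit among the 8394 best in KO at 2 h. The 6 h summits lay 55 and 83 bp after the gene start that lies inside the window below (chr5:120777610-120777909, minus strand). The match, in capitals, is 75 bases before that gene start.
Oas3: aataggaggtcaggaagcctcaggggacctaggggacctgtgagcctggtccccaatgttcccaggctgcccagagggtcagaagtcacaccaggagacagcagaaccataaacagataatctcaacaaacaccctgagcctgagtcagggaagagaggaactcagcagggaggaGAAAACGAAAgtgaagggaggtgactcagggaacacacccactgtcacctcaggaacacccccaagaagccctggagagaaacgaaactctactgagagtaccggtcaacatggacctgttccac
The change of Oas3 was 3.14 ± 0.59 (adjusted p = 0.00873, or 0.0502 without KO 6 h replicate 2).

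Calls in the NF-kB primary response, the first wave of inflammatory genes, were mostly lower. Of 34 tested genes of the NF-kB primary response, 1 was higher (Ptgs2), 6 were lower in KO at 6 h and 27 were not called, and the median change was -1.18. That is 17.6% lower, beside 1.8% over all tested genes. WT had more falls in this list, 12 lower and 0 higher, with a median of -1.73. The 6 are Nfkbie (the inhibitor IkB-epsilon), Icam1 (the adhesion molecule), Tnfaip2, Sqstm1 (the autophagy receptor p62) and the survival genes Bcl2a1b and Bcl2a1d, which are close copies of each other and whose reads may be split between them. The summits of Bcl2a1d were shared with Gm10634. Icam1 ranked 373 and 133 in KO at 6 h, against 20 and 25 in KO at 2 h, a change of -3.32 ± 0.72 (adjusted p = 0.0189). Nfkbie ranked 1809 and 989 in KO at 6 h, against 99 and 179 in KO at 2 h, a change of -3.33 ± 0.68 (adjusted p = 0.014). These falls compare in part different summits. The best Icam1 summits at 2 h lay 13757 and 13765 bp after its start, past its annotated end, against 118 bp in KO 6 h replicate 2, and 3 of its 4 were shared with Icam4. Those of Nfkbie lay 221 and 157 bp after its start at 6 h, against 8160 and 8183 bp at 2 h, past its end and shared with Slc35b2. Tnfaip2 ranked 98 and 77 in KO at 6 h, against 9 and 12 in KO at 2 h. Calls of Tnfaip2, Sqstm1, Bcl2a1b and Bcl2a1d were lost without KO 6 h replicate 2 (adjusted p 0.105 to 0.147). The count of lower genes was 2 without KO 6 h replicate 2, 5 without KO 6 h replicate 1, 1 without KO 2 h replicate 1 and 1 without KO 2 h replicate 2, and 7 of 33 with 1 rank per gene. Tnf was at the very top of the KO lists at both times, ranked 4 and 4 at 6 h against 2 and 1 at 2 h (change -1.50, adjusted p = 0.295), and Nfkbia ranked 6 and 11 at 6 h against 1 and 3 at 2 h (change -2.23, adjusted p = 0.169). Il1b ranked 171 and 847 in KO at 6 h, against 5723 and 1947 in KO at 2 h (change 3.13), with an adjusted p of 0.0513, and 0.0305 without KO 6 h replicate 2.

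Of 14 tested chemokine genes 0 were higher and 3 lower, with a median of -0.63. That is 21.4% lower, beside 1.8% over all tested genes. WT had 0 higher and 4 lower in this list, with a median of -1.01. Ccl7 (MCP-3), which recruits monocytes, ranked 4037 in KO 6 h replicate 2 and place 10836 of the whole list in replicate 1, against 147 and 100 in KO at 2 h, a change of -5.59 ± 0.59 (adjusted p = 4.73e-04). Its neighbour Ccl2 (MCP-1) ranked 5718 and 2431 in KO at 6 h, against 440 and 286 in KO at 2 h, a change of -3.39 ± 0.75 (adjusted p = 0.0213). Cxcl16, a transmembrane chemokine, ranked 691 and 3682 in KO at 6 h, against 44 and 38 in KO at 2 h (change -5.29 ± 1.04, adjusted p = 0.0115), from a summit that it shares with Zmynd15, and its adjusted p was 0.119 without KO 6 h replicate 2. The count was 2 without either KO 6 h replicate and 1 without either KO 2 h replicate. Others of the family stayed near the top at both times: Ccl4 ranked 7 and 7 in KO at 6 h, against 15 and 8 in KO at 2 h, and Cxcl2 ranked 25 and 34, against 99 and 26. Changes of Ccl4 and Cxcl2 were 0.65 ± 0.81 and 0.80 ± 0.78, neither past the threshold.

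The chemokine Cxcl1 is shown with its promoter because it kept polymerase at 6 h and holds a kappaB match (GGG, any 2 bases and TTTCC, searched on both strands), the kind of site to which NF-kB binds. Those letters were in 1.58% of all promoters, in 6 of 29 tested NF-kB primary response genes with a promoter in the table (Nfkbia, Nfkb2, Rel, Cxcl1, Cxcl2 and Cxcl3) and in 0 of the 6 lower ones. Cxcl1 ranked 49 and 43 in KO at 6 h, against 29 and 20 in KO at 2 h, a change of -0.93 ± 0.72 (adjusted p = 0.548). Its window (chr5:90890995-90891294, plus strand) has 2 matches, at 89 and 71 bases before the start, in capitals below.
Cxcl1: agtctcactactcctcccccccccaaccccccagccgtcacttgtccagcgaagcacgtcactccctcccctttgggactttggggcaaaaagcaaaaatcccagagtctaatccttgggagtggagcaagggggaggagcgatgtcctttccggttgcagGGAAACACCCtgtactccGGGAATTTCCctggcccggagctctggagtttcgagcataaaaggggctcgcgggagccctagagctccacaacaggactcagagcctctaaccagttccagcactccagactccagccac
For contrast, the window of Ptgs2 (chr1:150099781-150100080, plus strand), an NF-kB primary response gene that rose, has no kappaB match and holds ACGTG on both strands, in capitals.
Ptgs2: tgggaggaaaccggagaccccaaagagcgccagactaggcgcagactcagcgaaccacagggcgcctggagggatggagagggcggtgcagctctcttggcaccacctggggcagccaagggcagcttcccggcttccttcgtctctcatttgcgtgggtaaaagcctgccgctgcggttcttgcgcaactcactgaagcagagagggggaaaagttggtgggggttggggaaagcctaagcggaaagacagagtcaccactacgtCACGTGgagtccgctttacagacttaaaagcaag
Summits of Cxcl1 lay 234 and 157 bp after its start in KO at 6 h and 212 and 434 bp after it at 2 h.

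Late cytokine and effector genes split. Of 21 tested, 5 were higher (Lcn2, Edn1, Cd38, Csf3 and Cfb) and 3 lower (Cd40, C3 and Il15), with a median of 0.12 that was -0.29 with 1 rank per gene. That is 23.8% higher and 14.3% lower, beside 3.29% and 1.8% over all tested genes. WT had 0 higher and 2 lower in this list. The summits of Cfb were shared with C2. Cfb was listed in 3 of the 16, both of KO at 6 h and WT 6 h replicate 2. It entered the fit only through KO at 6 h, so its call is no support. Lcn2, the siderophore-binding lipocalin, ranked 840 and 1096 in KO at 6 h and was in neither whole KO 2 h list, a change of 3.13 ± 0.31 (adjusted p = 4.73e-04, and 4.33e-05 without KO 6 h replicate 2). The Lcn2 summits at 6 h lay 3927 and 3649 bp after its start, past its annotated end. Edn1, the vasoactive peptide endothelin 1, ranked 1332 and 969 in KO at 6 h, also with no summit among the 8394 best at 2 h (change 2.89 ± 0.51, adjusted p = 0.00671). Csf3, which encodes the granulocyte growth factor G-CSF, was called higher from low places, 4303 and 5253 in KO at 6 h against no summit among the 8394 best at 2 h, a change of 0.82 ± 0.12. These were its only 2 lists of the 16, so Csf3 entered the fit through them alone and its call is no support. The share of 23.8% counts both Csf3 and Cfb. Cd40, the co-stimulatory receptor, ranked 4124 and 3279 in KO at 6 h, against 96 and 261 in KO at 2 h, a change of -4.54 ± 0.54 (adjusted p = 0.00102). C3, the central complement component, and Il15 had changes of -3.11 ± 0.60 and -2.30 ± 0.49. The C3 fall compares different summits, 8628 and 8466 bp after its start at 6 h, against 24204 and 17813 bp at 2 h. C3 and Cd38 missed the threshold without KO 6 h replicate 2 (adjusted p 0.0648 and 0.144). The acute-phase gene Saa3 showed how far the 2 late libraries can differ: it held rank 1 in KO 6 h replicate 1 and rank 2959 in replicate 2, against 1113 and 237 in KO at 2 h. Its change was 3.24 ± 2.37 (adjusted p = 0.518), and without KO 6 h replicate 2 it was called (adjusted p = 3.15e-04). Il12b had a change of -1.69, which missed the threshold, and Il6 had a summit among the 8394 best in 1 of the 4 libraries, at 2336 in KO 6 h replicate 1. The counts were 6 higher and 2 lower without KO 6 h replicate 2, 4 and 3 without replicate 1, and 3 and 2 without either KO 2 h replicate.

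The largest falls also held regulators and complement genes. Etv3 (chr3:87525577-87540158) ranked 4124 and 2065 in KO at 6 h, against 50 and 40 in KO at 2 h, a change of -6.03 ± 0.71 (adjusted p = 0.00102). Rhob, an endosomal small GTPase, ranked 6097 and 6183 in KO at 6 h, against 178 and 91 in KO at 2 h, a change of -5.59 ± 0.62 (adjusted p = 6.23e-04). Mylip, the ubiquitin ligase that degrades the LDL receptor, had no summit among the 8394 best in either KO 6 h library, against 191 and 168 in KO at 2 h, a change of -5.55 ± 0.53 (adjusted p = 4.73e-04). The early libraries stood clear of the late ones in all 3 genes, and each call held when any 1 of the 4 libraries was left out. C1qb and C1qc, chains of complement C1q, had changes of -5.15 ± 0.74 and -5.02 ± 0.84. Apobec1, the cytidine deaminase that edits apolipoprotein B mRNA, ranked 2263 and 5651 in KO at 6 h, against 120 and 70 in KO at 2 h, with an adjusted p of 0.00644 that was 0.0634 without KO 6 h replicate 2. When summits were counted in place of ranked, the signs of Etv3, Rhob, C1qb and H2-K1 were positive (0.71, 0.29, 0.21 and 0.87).

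Antigen presentation held 0 higher and 4 lower genes of 15 tested (H2-K1, H2-Q4, H2-Q6 and Cd40), with a median of -0.31. That is 26.7% lower, beside 1.8% over all tested genes. WT had 0 higher and 5 lower in this list, with a median of -0.68. H2-K1, a classical class I heavy chain, ranked 932 and 1433 in KO at 6 h, against 32 and 44 in KO at 2 h, a change of -4.94 ± 0.66 (adjusted p = 0.00203). H2-Q4 ranked 5579 and 5095 in KO at 6 h, against 174 and 545 in KO at 2 h, a change of -4.11 ± 0.57 (adjusted p = 0.00238). The H2 genes are near-identical in part, so that reads may be split between them. H2-Q6 had a summit only in the 2 KO 2 h lists of the 16. It entered the fit through them alone, so its call is no support. The count was 3 without either KO 6 h replicate and 4 without either KO 2 h replicate, and H2-Q6 was lost without KO 6 h replicate 2 (adjusted p = 0.145). Of 47 ribosomal protein genes 0 were higher and 5 lower (Rps20, Rpl35, Rpl17, Rpsa and Rpl13a), a share of 10.6% lower against 1.8% over all tested genes, with a median of -0.47 and 18 positive changes. WT had 0 higher and 3 lower ribosomal protein genes, with a median of -0.67. Rps20 ranked 5806 and 5322 in KO at 6 h, against 285 and 346 in KO at 2 h (change -4.15 ± 0.64, adjusted p = 0.00329). The Rpsa fall compares different summits. They lay 5004 and 5494 bp after its start at 6 h, past its annotated end, against 159 and 141 bp at 2 h. Rps20 held in all 4 fits without 1 library, and Rpsa and Rpl13a in 0 of 4. The ribosomal count was 2 without KO 6 h replicate 2, 6 without KO 6 h replicate 1, 3 without KO 2 h replicate 1 and 1 without KO 2 h replicate 2, and 9 of 47 with 1 rank per gene.

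Of 47 tested genes of TLR, IkB kinase and caspase-8 signalling, the pathway in which N4BP1 acts, 1 was higher and 3 were lower, 8.51% beside 5.09% called over all tested genes, and the median was 0.38. Tnfrsf1a, the TNF receptor TNFR1, ranked 889 and 1067 in KO at 6 h, against 6722 and 4798 in KO at 2 h, a change of 2.54 ± 0.44 (adjusted p = 0.00623). Irf5, the interferon regulatory factor that acts downstream of MYD88, ranked 6998 and 4651 in KO at 6 h, against 428 and 455 in KO at 2 h, a change of -3.69 ± 0.60 (adjusted p = 0.00405). This fall compares different summits. They lay 1018 and 3203 bp after the Irf5 start at 6 h, against 13598 and 13796 bp at 2 h, and 1 of the 4 was shared with Tnpo3. Birc2, the ubiquitin ligase cIAP1, and Sharpin, a subunit of the linear ubiquitin ligase, had changes of -3.59 ± 0.74 and -2.77 ± 0.66, and Sharpin shares its summits with Maf1. Both calls were lost without KO 6 h replicate 2 (adjusted p 0.118 for Birc2 and 0.0802 for Sharpin). The kinase Chuk (IKK-alpha) ranked 6809 and 7795 in KO at 6 h, against 1202 and 3778 in KO at 2 h (change -1.77, adjusted p = 0.173). The kinases Ikbkb, Ikbke and Tbk1, the regulatory subunit Ikbkg (NEMO) and the protease Casp8 had changes of -0.99, 0.75, 1.56, 0.00 and 1.03, and neither these nor Chuk passed the threshold. The counts were 5 higher and 3 lower without KO 6 h replicate 1, 1 and 1 without KO 6 h replicate 2, 1 and 1 without KO 2 h replicate 1, and 1 and 5 without KO 2 h replicate 2. Of 28 negative feedback regulators, 14.3% were called in KO, beside 5.09% over all tested genes, and WT had 0 higher and 3 lower. In KO 1 was higher, the interleukin 1 antagonist Il1rn, and 3 were lower (Ptpn2, Nfkbie and Rcan1). Of the regulators, Ptpn2 was lost without KO 6 h replicate 2 and Rcan1 held in 0 of 4 fits without 1 library. Their median was 0.17, and -0.25 with 1 rank per gene, and the counts were 2 and 2, 1 and 1, 0 and 0, and 0 and 2 in the same 4 fits.

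**Figure D2:**
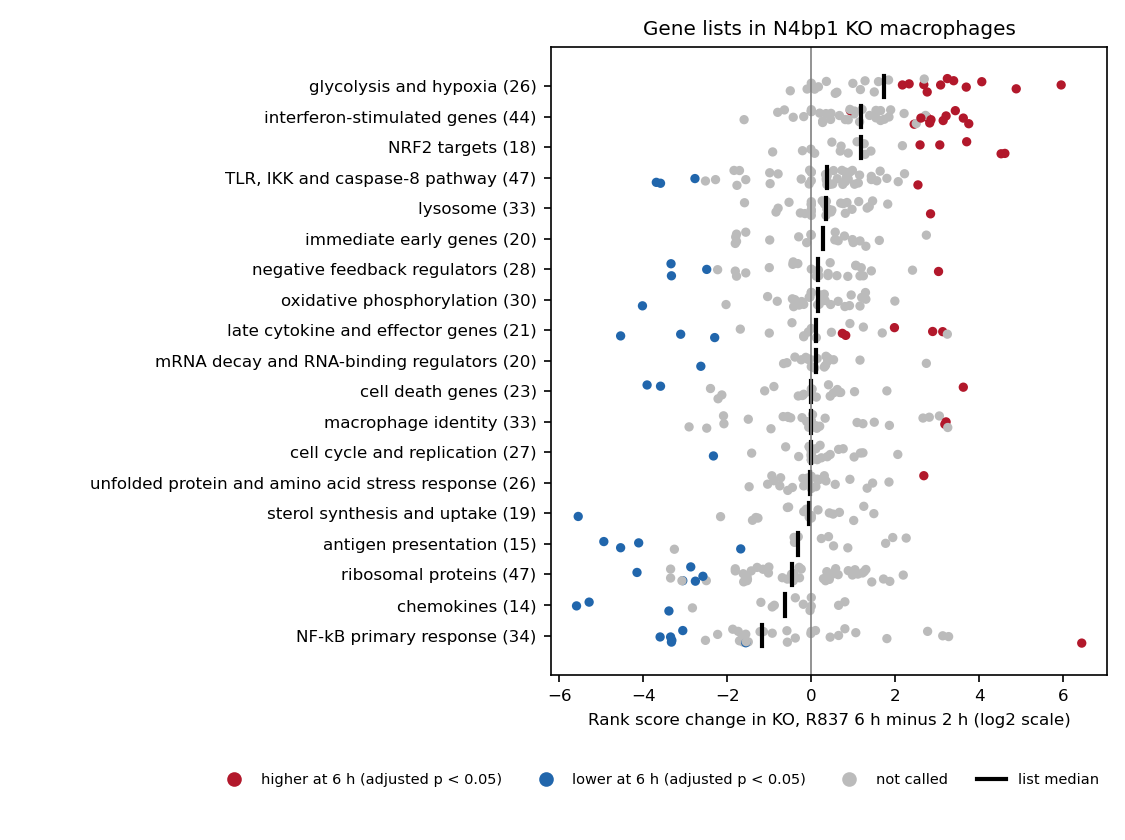
Change in rank score in KO macrophages, 6 h minus 2 h (x axis, log2 scale), for the tested genes of 19 lists (rows, number tested in brackets), with red and blue points past an adjusted p of 0.05 and a black bar at the median. The medians run from 1.72 for glycolysis and hypoxia to -1.18 for the NF-kB primary response.

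Among the remaining lists, immediate early genes had 0 calls of 20 tested. Macrophage identity genes had 2 higher of 33 (6.06%, beside 3.29% over all tested genes), the integrin chain Itgb2 and the adaptor Tyrobp. Without KO 6 h replicate 1 these lists had 2 and 3 higher, without KO 6 h replicate 2 they had 0 and 5, without KO 2 h replicate 1 they had 0 and 0, and without KO 2 h replicate 2 they had 0 and 1. Cell death genes had 1 higher (Zbp1) and 2 lower of 23, with Bcl2l11, which encodes the death-promoting BIM, ranked 7717 and 5148 in KO at 6 h, against 446 and 394 in KO at 2 h (change -3.91 ± 0.60, adjusted p = 0.00341). The best Bcl2l11 summits were shared with Acoxl in all 4 KO libraries. They lay 112 and 97 bp after the start at 6 h, against 1028 and 955 bp at 2 h. The lysosome list had 1 higher of 33 (3.03%, beside 3.29% over all tested genes). This was the protease gene Ctsd, at 379 and 466 in KO at 6 h, against 2128 and 4231 in KO at 2 h. The lists of mRNA decay, oxidative phosphorylation, cell cycle, sterol genes and the unfolded protein response had 1 call each (Pan3, Atp5a1, Cdk6 and Mylip lower, Hsp90b1 higher), of 19 to 30 tested. These are shares of 3.33% to 5.26%, beside 5.09% called over all tested genes, and Cdk6 was lost without KO 6 h replicate 2. Of the 3 best Atp5a1 summits in the KO lists, 2 were shared with Haus1. Markers of B cells, mast cells, erythroid cells and T and NK cells were at or near 0, and those of neutrophils and dendritic cells were not. In all, 0 of 9 B cell, 0 of 7 mast cell and basophil and 0 of 9 erythroid markers were tested for want of summits, and 3 of 15 T and NK cell markers were, with summed scores of 0.3 and 0.0 in KO at 6 h and 0.0 and 0.0 in KO at 2 h. Neutrophil markers summed to 6.1 and 4.2 in KO at 6 h, against 0.0 and 1.7 in KO at 2 h, and 1 of the 2 tested, the G-CSF receptor Csf3r, was higher (change 3.59 ± 0.68, adjusted p = 0.00955). Dendritic cell markers summed to 4.0 and 5.1 in KO at 6 h, against 3.1 and 0.4 in KO at 2 h, and fibroblast markers to 0.9 and 0.0, against 0.0 and 0.0, with 0 called in either list. The dendritic cell sums came from Xcr1 alone, and its best summit also lay in the region of Fyco1 in all 4 KO libraries. The part of other cells in these results was not tested.

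Seen as presence or absence, polymerase persisted at 2312 genes (31.4% of the 7367 with a summit in any shortened KO list), which had one in all 4. It appeared at 732, with a summit in both 6 h and neither 2 h list, and faded at 236, with the reverse. The best-placed persisting genes included Tnf, Fth1 (ferritin heavy chain), Actb, Nfkbia, Ccl4, Socs3, Tnfrsf1b, Junb and Ccl3. Socs3, the cytokine signalling inhibitor, ranked 11 and 5 in KO at 6 h, against 14 and 17 in KO at 2 h. Junb, an AP-1 subunit, ranked 17 and 15 in KO at 6 h, against 5 and 13 in KO at 2 h. Ccl3 and Ccl4 lie side by side and shared a summit in some libraries, as did Fth1 with Best1.

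The best-placed genes that appeared, with no summit at 2 h even in the whole lists, included Cd300e, Lcn2, Zbp1, Itgb2 and Oas3. Itgb2, the beta chain of leukocyte integrins, ranked 611 and 1349 in KO at 6 h, a change of 3.21 ± 0.65 (adjusted p = 0.013). The best-placed that faded, with no summit in the whole 6 h lists, were Taf4 (a TFIID subunit), Nol7, Rgs1 (a regulator of G protein signalling), the histone gene H3c11, Papola (poly(A) polymerase) and Fgl2, whose summits were shared with Ccdc146. Nol7, a nucleolar protein, ranked 1514 and 1498 in KO at 2 h, a change of -2.48 ± 0.60 (adjusted p = 0.0319). Taf4 (change -3.11 ± 0.54, adjusted p = 0.00628) and Papola were also called lower, of which Taf4 held in all 4 fits without 1 library and Nol7 and Papola in 0 of 4 (adjusted p 0.117 and 0.159 without KO 6 h replicate 2), while Rgs1, H3c11 and Fgl2 missed the threshold (adjusted p 0.0765, 0.105 and 0.0563). In the whole lists, which are longer at 6 h, 3153 genes persisted, 1674 appeared and 37 faded. With 1 rank per gene, which also cuts each list to 2693 genes, the numbers were 1175, 357 and 389. Leaving out KO 6 h replicate 2, 1012 genes appeared and 489 faded, and leaving out KO 6 h replicate 1, 1744 and 358. They were 1696 and 338 without KO 2 h replicate 1, and 876 and 783 without KO 2 h replicate 2.

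Part of the change in KO was also called in WT. Of the 153 genes lower in KO, 66 (43.1%) were also lower in WT at 6 h against 2 h, where 163 genes were lower (1.92%) and 2.99% were called in either direction, so that the shared genes were 40.5% of the WT calls. Of the 279 higher in KO, 36 (12.9%) were also higher in WT, 39.6% of the 91 higher there (1.07%). The median WT change of the genes lower in KO was -2.34 against -2.99 in KO, and that of the genes higher in KO was 0.54 against 2.42. The KO genes were chosen for their KO change, which makes the KO medians the larger, and the numbers of calls in the 2 genotypes were not tested against each other. Of the 732 genes that appeared in KO, 158 (21.6%) had a summit in both WT 6 h lists and 268 (36.6%) in neither, and of the 236 that faded, 168 (71.2%) were in neither WT 6 h list. Over the 7367 genes in any KO list these shares were 32.3% in both and 39.3% in neither. WT 6 h replicate 2 covers 2693 genes, against 4734 and 5900 in the KO 6 h libraries, which limits how many can be in both WT lists. Hmox1, Pkm and Gapdh rose in WT as well, with WT changes of 6.86, 4.11 and 3.27, and Etv3, Rhob, Mylip and H2-K1 fell in WT, with WT changes of -5.93, -4.53, -4.60 and -4.49.

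**Figure D3:**
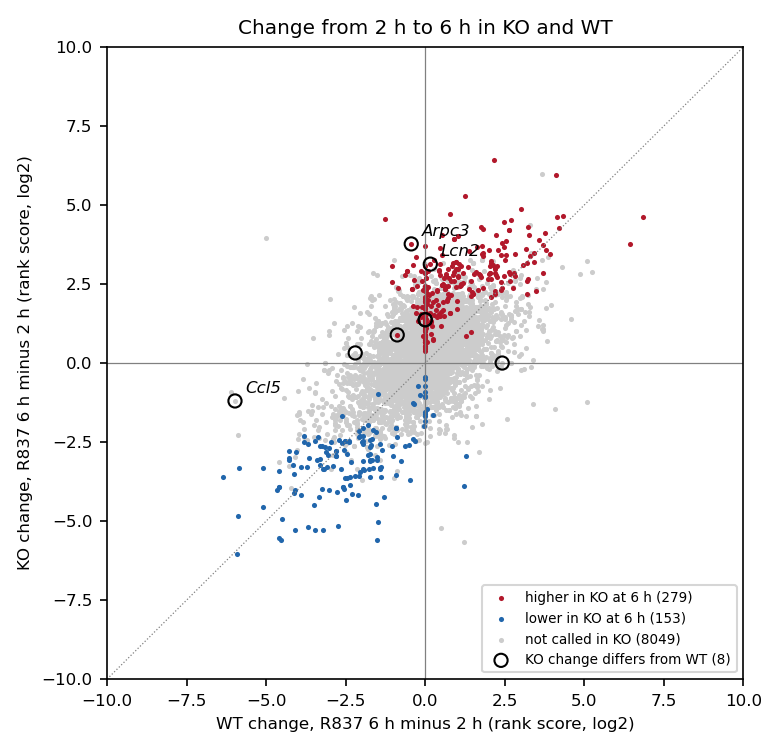
Change in rank score from 2 h to 6 h in KO (y axis) and in WT (x axis) for the 8481 tested genes, coloured by their call in KO, with rings on the 8 genes whose KO change differs from the WT change. Most lower genes lie at the lower left, whereas many higher genes lie near a WT change of 0, and Ccl5 lies far to the left.

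Tested directly, the change in KO differed from that in WT at 8 genes, 7 with a higher change in KO (0.0825% of those tested) and 1 with a lower one (0.0118%), 0.0943% in all. The clearest in size was Ccl5 (RANTES), a chemokine for T cells and monocytes. In KO it ranked 111 and 91 at 6 h, against 66 and 29 at 2 h. In WT it ranked 4109 and 3996 at 6 h, against 47 and 88 at 2 h. At 2 h the genotypes overlapped, and at 6 h both WT libraries were far below both KO libraries, while within KO both 6 h libraries were somewhat below both 2 h ones. The KO change was -1.20 ± 0.56 (adjusted p = 0.263), the WT change -5.98 (adjusted p = 1.71e-04), and their difference 4.78 ± 0.79 (adjusted p = 0.0477). The WT 6 h lists held 4 and 3 summits over Ccl5 and each other treated list of either genotype held 1, so that the number of summits gave a difference of -1.16, the other way round. The call held in 8 of 17 alternatives and in 3 of the 8 fits without 1 library, whose differences lay between 4.18 and 5.37. The difference was called without KO 6 h replicate 2 (4.63, adjusted p = 0.033).

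Lcn2 ranked 840 and 1096 in KO at 6 h, against 8159 and 6955 in WT at 6 h, and was in none of the 4 whole lists of 2 h. The difference in its change was 2.97 ± 0.43 (adjusted p = 0.0277). Arpc3, a subunit of the actin-nucleating ARP2/3 complex, ranked 671 and 428 in KO at 6 h, against 6406 in KO 2 h replicate 1 and no summit among the 8394 best in replicate 2. In WT it was at 8061 in 6 h replicate 1, absent from the 8394 best in replicate 2, and at 5909 and 6247 at 2 h. The difference for Arpc3 was 4.21 ± 0.64 (adjusted p = 0.0279). Cks2 (1.77 ± 0.27), Arhgef17 (2.52 ± 0.35), Gm128 (-2.42 ± 0.40) and the pair Phtf2 and Tmem60, which share a summit (1.37 ± 0.14 in KO, 0.00 in WT), were also called, with best ranks between 1104 (Gm128 in WT at 6 h) and 5405 (Cks2 in WT at 2 h). Phtf2 and Tmem60 had a summit only in the 2 KO 6 h lists of the 16, and Gm128 only in the 2 of WT at 6 h. They entered the fit through that group alone, so their calls and small errors are no support for a difference. Arhgef17 was listed in 3 of the 16, both of WT at 2 h and KO 6 h replicate 2. It entered the fit only through WT at 2 h, so its call is no support either. Cks2 was listed in 4, all of WT at 2 h and KO at 6 h. It entered only through the groups that raise this difference, and its call is no support. With the replicate number as a block, limma called 0 differences, with 456 higher and 139 lower at an unadjusted p under 0.05, against 471 and 137 with no block.

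For several other inflammatory genes, picked after their values were seen, the difference did not pass the test. Cxcl1 in WT ranked 5207 in 6 h replicate 1 and was in no place of the replicate 2 list, against 84 and 109 at 2 h, and its difference was 5.18 ± 1.01 (adjusted p = 0.109). Cxcl2, its neighbour, ranked 710 and 357 in WT at 6 h, against 49 and 38 in WT at 2 h, a difference of 4.34 ± 1.11 (adjusted p = 0.201). Tnfaip3, which encodes the NF-kB inhibitor A20, ranked 43 and 31 in KO at 6 h, against 78 and 74 in KO at 2 h, and 227 and 765 in WT at 6 h, against 79 and 64 in WT at 2 h (difference 3.61 ± 0.88, adjusted p = 0.2). Ptgs2, the largest rise in KO, ranked 1126 and 942 in WT at 6 h, against 5938 and 3580 in WT at 2 h (difference 4.28 ± 1.01, adjusted p = 0.168). Ccl7 stood on the other side: in WT it still ranked 475 and 173 at 6 h, against 91 and 112 at 2 h (difference -4.08 ± 0.83, adjusted p = 0.123). The largest difference by size, Mrps18b (8.97 ± 3.22, adjusted p = 0.49), came from libraries of 1 group that disagreed, with ranks of 38 and 4551 in KO at 2 h.

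**Figure D4:**
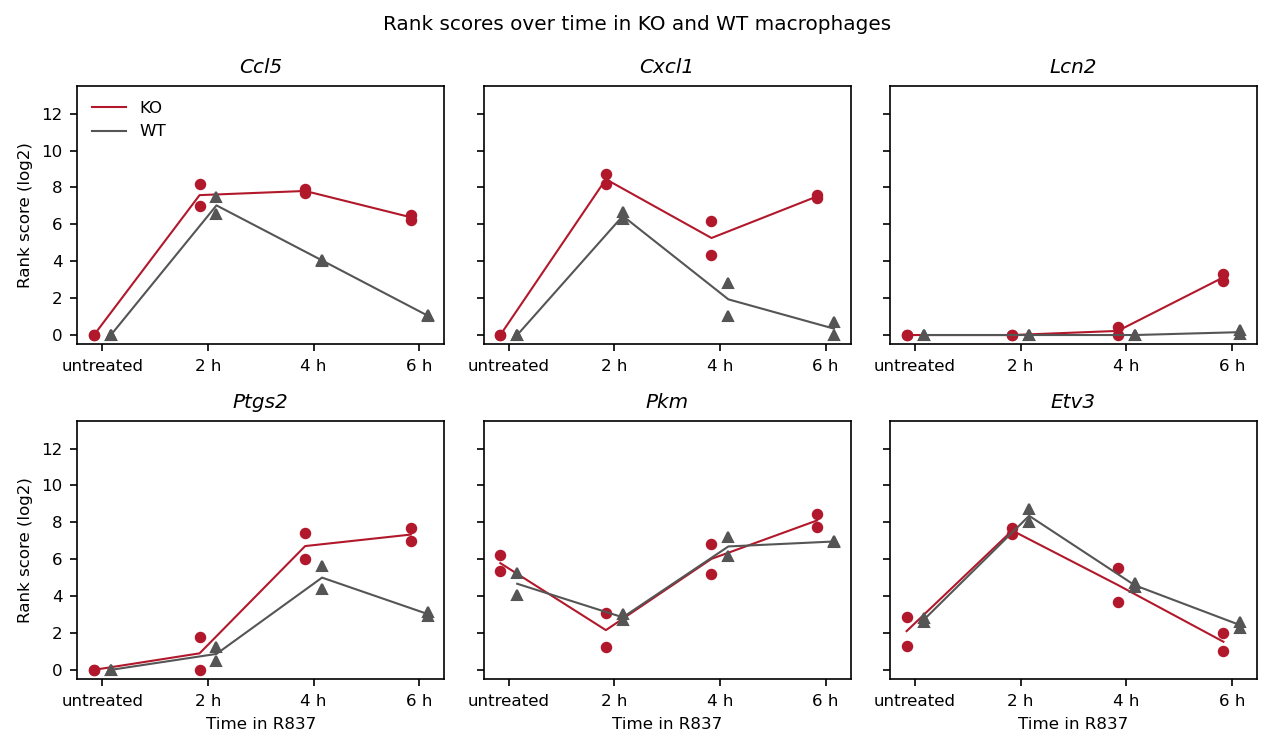
Rank score (y axis, log2, 0 with no summit among the 8394 best) over time in R837 (x axis) in KO (red circles) and WT (grey triangles), each point 1 library and each line the mean of 2. KO and WT are together at 2 h for Ccl5, are apart at 4 h and differ most at 6 h (6.38 in KO, 1.05 in WT), Lcn2 appears at 6 h in KO (3.13), and Etv3 falls in both.

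At 4 h, Ccl5 ranked 35 and 40 in KO, against 515 and 503 in WT. The 4 h libraries of KO and WT carry different series of codes in their peak names. Genotype and any difference in handling therefore cannot be told apart at 4 h, and KO was not tested against WT there. Ptgs2 was already at 49 and 131 in KO at 4 h, and Pkm at 227 and 74. Cxcl1 ranked 114 and 421 in KO at 4 h, below its places at both 2 h and 6 h, against 4130 and 1169 in WT at 4 h. Lcn2 ranked 6159 in KO 4 h replicate 1 and had no summit among the 8394 best in replicate 2, so most of its rise came after 4 h. Etv3 ranked 184 and 650 in KO at 4 h, between its earlier and later places.

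The positions of the summits overlapped between the times at equal list length. Within 1 kb of a gene end lay 47.0% and 58.3% of the best 8394 summits in KO at 6 h, against 53.0% and 38.9% in KO at 2 h, and the times overlap. In the whole lists the shares were 34.6% and 36.1% at 6 h, against 46.8% and 38.1% at 2 h, both 2 h libraries above both 6 h ones, but the 6 h lists are longer and this share was lower in the whole than in the shortened list of each library. The difference of the means was 6.73 percentage points in the shortened lists and -7.10 in the whole ones. Without KO 6 h replicate 2 it was 1.05, and without KO 2 h replicate 2 it was -0.295. At persisting genes of known strand (1936), the best summit was within 1 kb of the start in 69.4% and 72.2% at 6 h, against 72.1% and 66.2% at 2 h. Summits of a KO 6 h list had a partner within 500 bp in a KO 2 h list for 36.4% to 48.6%, against 55.5% and 54.9% between the 6 h lists, and at least 55.6% between the 2 h lists.

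**Figure D5:**
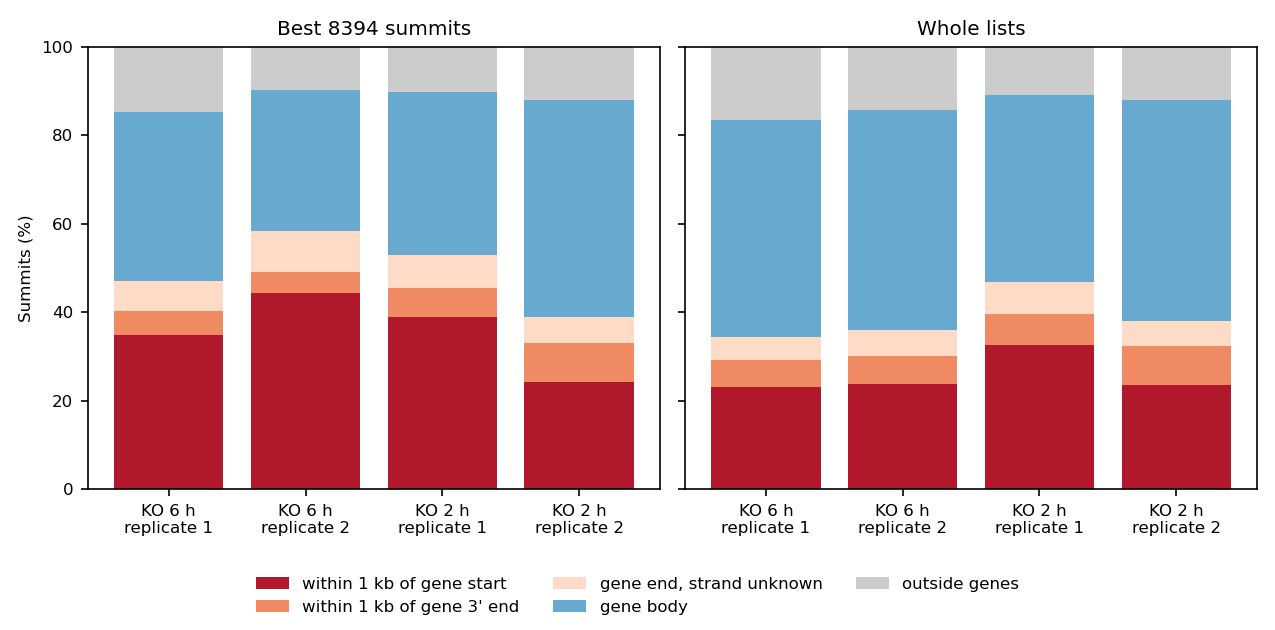
Share of summits (y axis, %) by position relative to protein-coding genes in the 4 KO libraries (x axis), for the best 8394 summits (left) and the whole lists (right). KO 6 h replicate 2 and KO 2 h replicate 1 have the largest share at gene starts in the shortened lists (44.5% and 39.0%), where the times overlap.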

How the data were processed

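RNA polymerase II ChIP-seq libraries were read from 1 end (75 nt, NextSeq 500), per the labels' protocols. GSNAP, MACS2 and the GRCm38 build are named in the submitters' processing notes; versions, call threshold and control are not given in the sources used here. Every file the authors deposited lists the 1 bp summits of 1 library, and an input sample was not used here. The deposited score of a summit is −log10 of either a p-value or a q-value (which of them is unstated); it is the authors' own value and was used for ordering alone. The files hold no counts, so depth is unknown and no counting interval can be given.

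Summits were ranked by score, with ties sharing the better rank, and lists shortened to 8394 ranks (8394 to 8499 summits, because of ties). Regions came from 21887 protein-coding genes of RefSeq GRCm38.p6, and a summit counted for every region it lay in. A gene entered the fit if at least 2 of the 16 shortened lists held a summit for it. The fit used limma 3.58.1 (R 4.3.3), a mean for each of the 8 groups, and errors moderated along a variance trend; Benjamini-Hochberg adjustment covered all 8481 genes (threshold 0.05). Errors after a change are standard errors of that fit, with 2 libraries a group. The fit was also run on simulated scores with independent noise for each gene and library. Neither shared summits nor the way KO 6 h replicate 2 stands apart was modelled, so that run is no support for the calls here. The named genes are the 12 largest called rises and falls without overlap, the leading and called members of each list, the best-placed persisting, appearing and fading genes, and the largest differences from WT; Il1b, Tnfaip3, Cxcl2 and other unlisted ones were added after their values were seen, and a few genes that the rule names are not reported here. Members, lists and tests were chosen with earlier results of these data known. Alternatives varied list length, gene region, ranking, filter, trend, block and libraries. Strand was known for 17492 genes.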

Additional observations from a re-analysis of the deposited data

Results flagged for a closer look

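The change from 2 h to 6 h differed between KO and WT, by the interaction term of the fit, at 8 genes. As the KO change minus the WT change in rank score, the values were 4.78 for Ccl5, 4.21 for Arpc3, 2.97 for Lcn2, 2.52 for Arhgef17, 1.77 for Cks2, 1.37 for Phtf2, 1.37 for Tmem60 and -2.42 for Gm128. Phtf2 and Tmem60 rest on the same summit and count as 1 observation. These genes and Gm128 entered the fit through 1 group alone (KO at 6 h, or WT at 6 h for Gm128), so their calls are no support. Arhgef17 entered it only through WT at 2 h, and Cks2 only through WT at 2 h and KO at 6 h, the groups that raise this difference. Their calls are no support either. Arhgef17 and Gm128 were not called within KO, so their differences come from the WT libraries, where Arhgef17 ranked 1818 and 1842 at 2 h and Gm128 ranked 2231 and 1104 at 6 h. Among the alternatives the call held in 12 of 17 for Arpc3, 12 of 15 for Arhgef17, 10 of 16 for Lcn2, 8 of 17 for Ccl5, 8 of 14 for Phtf2, 8 of 15 for Tmem60, 7 of 15 for Cks2 and 7 of 16 for Gm128.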

How the results depend on the processing

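Similar counts can hold different genes. With summits counted in place of ranked, 305 genes were higher and 200 lower, of which only 78 and 57 were among the 279 and 153 of the main fit. In number alone, the counts of 279 higher and 153 lower genes were within 1.5 times of the main counts under most alternatives. The exceptions were 1 rank per gene (172 higher), the 8 KO libraries alone (83 higher, 57 lower), the 4 compared libraries alone (0 and 0), and fits without 1 library (99 to 727 higher, 76 to 185 lower). Differences between KO and WT, 7 higher and 1 lower, were 16 and 0 with lists of 4000 summits, 0 and 0 with the annotated span only (369 and 134 at an unadjusted p under 0.05), 12 and 7 with 1 rank per gene, 90 and 38 with summits counted, 20 and 5 with no filter, 0 and 0 with a summit in at least 4 lists (422 and 128 unadjusted), and 7 and 0 with no variance trend. Without 1 library they were 2 to 283 higher and 1 to 26 lower. Persisting genes numbered 1175 with 1 rank per gene (2434 to 3276 without 1 library). Appearing genes numbered 1674 in whole lists, 357 with 1 rank per gene and 876 to 1744 without 1 library, and fading genes 37, 389 and 338 to 783. The share of summits at gene ends (6.73 points) was -7.10 in whole lists and -0.295 to 13.8 without 1 library. The share of summits with a partner (43.4%) was 31.6% within 200 bp, 50.7% within 1 kb and 28.6% in whole lists. The cause was not tested.

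Of 1516 values over 94 genes in KO and 8 differences, 1048 kept direction and call, 448 lost the call and 20 reversed. With summits counted, KO changes were -0.16 for Pkm, 0.71 for Etv3, 0.29 for Rhob, 0.21 for C1qb, 0.87 for H2-K1, 1 for Sqstm1, 0.45 for Icam1, 0.79 for Tnfaip2, 0.29 for Sharpin, -0.21 for Tyrobp, -0.50 for Gapdh, -0.37 for Rtp4, -1.91 for Pfkfb3 and -0.66 for Aldoa, and the Ccl5 difference was -1.16. With 3 kb on each side, Mus81 was 1.31, Cks2 -1.64, the Cks2 difference -0.76 and the Arhgef17 difference -0.27. With the annotated span only, Tnfaip2 was 1.66.

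Replicate numbers are shared between groups. Correlations of deviations were -0.05 between KO at 6 h and 2 h and -0.11 to 0.18 over the 6 pairs of KO and WT groups at these times, so the numbers were not taken to pair libraries. With the replicate block, 256 genes were higher and 144 lower in KO, and differences from WT numbered 0 and 0.

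Depth is unknown, a rank in 1 list depends on all other genes in it, and 2 libraries a group allow no check of KO 6 h replicate 2 beyond leaving it out.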

Other observations

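Hsp90b1, the endoplasmic reticulum chaperone GRP94, ranked 1577 and 1037 in KO at 6 h, against 7986 in KO 2 h replicate 1 and no summit among the 8394 best in replicate 2, a change of 2.68 ± 0.40 (limma, adjusted p = 0.0031), and its summits are shared with Ttc41. Mus81, a structure-specific nuclease subunit, had no summit among the 8394 best in either KO 6 h library, against 788 and 406 in KO at 2 h, while in WT it ranked 1441 and 913 at 6 h, against 1778 and 4060 at 2 h. Its KO change was -3.89 ± 0.63 (adjusted p = 0.00405), its difference from the WT change was -5.12 ± 0.90 (adjusted p = 0.0637), and with 3 kb on each side its KO change was 1.31.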
